A study of Homo sapiens with 12 samples.

Results

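The genes described here are the numbered zinc finger genes of human chromosome 19, chosen by name and position: every symbol made of ZNF and a number whose listed locus lies on chromosome 19 of the hg19 build, haplotype contigs left out. The rule used no measured value and found 237 of the 23615 gene symbols in the files. By start position 48 lie at 19p13 (below 19 Mb), 33 at 19p12 (from 19 Mb to the centromere), 60 at 19q13.1-q13.3 and 96 at 19q13.4 (from 52 Mb). A symbol rule is not a family definition, and chromosome 19 genes of the same fold under other names are given separately.

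Proteins of this family bind DNA through tandem C2H2 zinc fingers, each finger reading a few bases. Many carry a KRAB domain, which recruits the corepressor TRIM28 and through it the histone methyltransferase SETDB1, so that bound chromatin gains trimethylated H3K9. They are best known for silencing transposable elements in early embryos and pluripotent cells, and they stand in clusters that grew by tandem duplication.

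The study measured polyA RNA of H9 and RUES2, 2 established lines of human embryonic stem cells, in a primed and a naive state, with 3 biological replicates in each of 4 groups, 12 libraries in all. No group carried a genetic change according to the labels. Primed H9 (passages 31 to 35) and primed RUES2 (passages 30 to 33) grew on mitomycin-treated mouse embryonic fibroblasts in knockout serum replacement medium with 4 ng/mL bFGF. Naive H9 (passages 27 to 31) and the libraries labelled naive RUES2 (passages 24 to 26) grew in a medium with 20 ng/mL LIF, 1 uM PD0325901 (a MEK inhibitor), 3 uM CHIR99021 (a GSK3 inhibitor), 5 mM glucose and 18 ug/mL insulin. State, medium, passage range and passaging method change together, so they cannot be told apart. The series title names transient mTor inhibition as the way to the naive state, and colonies were picked by hand.

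Levels are in FPKM, a count of sequenced fragments divided by transcript length and by library size, which allows levels of different genes to be set side by side. Between 12681 and 13592 genes reached 1 FPKM per library, and 184 to 220 of the members did. Counts were not in the tables, but the listed confidence bounds, read as counting error, imply that a gene between 1 and 2 FPKM rested on 48.4 to 113 fragments (library medians). In a check with genes whose transcripts depend on genotype, each library was set against the primed libraries of its own line label. Of the 6 libraries labelled RUES2, 3 did not match, and all labelled H9 matched. The primed libraries were the reference and could not fail the check, and no outside genotype was used. It therefore cannot tell which of the libraries labelled RUES2 carry the wrong label. In the comparisons that use the libraries labelled naive RUES2, state and line identity cannot be told apart, whereas naive H9 matched primed H9 in these genes. Pluripotency genes from a fixed list of 8 (POU5F1, SOX2 and others) summed to between 2002 and 2427 FPKM in primed libraries and 1150 to 1565 FPKM in naive ones. Of these 8, 5 fell and 0 rose in naive H9, and 7 fell and 1 rose in RUES2. The gene that rose was NANOG, at 55.9, 33.2 and 63.4 FPKM in primed RUES2 and 248, 459 and 193 in the libraries labelled naive RUES2. Of 8 tested naive-state genes from a list of 10, 5 rose in H9 (DNMT3L, KHDC3L, TFAP2C, KLF5 and SUSD2), 2 rose in RUES2 (DNMT3L and SUSD2) and 0 fell in either, while KLF17 was under 1 FPKM in all 12 libraries. TFCP2L1 was not tested either. It was lower in naive H9 (0.169, 0.158 and 0.140 FPKM) than in primed H9 (0.412, 0.224 and 0.690), and its states overlapped in RUES2.

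Several genes listed as markers of other cell types moved with the state, and which cells their RNA came from was not tested. A fixed list of 10 fibroblast genes (COL1A1, LUM, DCN and others) summed to 38.1 to 68.3 FPKM in primed H9, 322 to 493 in naive H9, 26.5 to 56.8 in primed RUES2 and 194 to 1058 in the libraries labelled naive RUES2. Of 9 tested, 7 rose in each line, and no gene of the list was under 1 FPKM in all libraries. Of the other listed lineage markers, CDX2 (trophectoderm), MAP2 and TUBB3 (neural) and GATA4 and GATA6 (endoderm) also rose in naive libraries of both lines, while KRT7 fell in both. The endoderm gene SOX17 fell in naive H9 and rose in RUES2. The trophectoderm gene GATA3 fell in RUES2 alone, and FOXA2 (endoderm) passed the test in neither line. The neural list summed to 66.6 to 112 FPKM in primed and 175 to 189.5 in naive H9, and the endoderm list to 4.39 to 11.2 and 15.02 to 24.8. In RUES2 these sums were 53.8 to 102 and 230.2 to 304 for the neural list, and 11.03 to 13.5 and 17.7 to 36.5 for the endoderm list. The trophectoderm and amnion list summed to 4.52 to 7.35 FPKM in primed H9 and 9.41 to 14.1 in naive H9. It summed to 8.30 to 15.4 FPKM in primed RUES2 and 3.23 to 9.09 in the libraries labelled naive RUES2. SOX1 and VTCN1 were under 1 FPKM in all 12 libraries. The part of such transcripts in the zinc finger results was not tested. In bulk RNA, fewer cells of a type and less RNA per cell cannot be told apart.

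A further library stood apart for these genes. Primed RUES2 replicate 2 held the highest of the 12 values for 93 of the 237 members (39.2%), against 12.5% of all genes tested, and for 19 of the 33 members at 19p12. For some results that rest on primed RUES2, values without that replicate are given as well.

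The windows in which the RNAs start carried different letters in the 4 clusters. RefSeq promoter windows (GRCh38.p14, 250 bases before to 50 after the start) were matched for 204 members. They are shown for 5 genes on which results below turn, as examples of their clusters, 5′ to 3′ on the coding strand, with capitals marking matches on either strand to GGGCGG (the GC box), to CCAAT (the CCAAT box) and to the ETS-type core CCGGAA. ZNF611 (chr19:52734995-52735294, minus strand) and ZNF528 (chr19:52397599-52397898, plus strand) are 19q13.4 genes that rose in naive H9. ZNF433 (chr19:12035630-12035929, minus strand) and ZNF844 (chr19:12064481-12064780, plus strand) are 19p13 genes that fell there. ZNF208 (chr19:22010894-22011193, minus strand) is a 19p12 gene whose level differed between the lines.
ZNF611: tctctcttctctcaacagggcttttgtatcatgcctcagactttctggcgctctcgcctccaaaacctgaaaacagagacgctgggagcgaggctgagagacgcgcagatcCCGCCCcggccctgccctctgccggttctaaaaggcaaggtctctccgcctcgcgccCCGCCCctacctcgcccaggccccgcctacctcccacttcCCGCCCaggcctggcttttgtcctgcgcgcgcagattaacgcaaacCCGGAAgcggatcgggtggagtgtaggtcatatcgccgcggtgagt
ZNF528: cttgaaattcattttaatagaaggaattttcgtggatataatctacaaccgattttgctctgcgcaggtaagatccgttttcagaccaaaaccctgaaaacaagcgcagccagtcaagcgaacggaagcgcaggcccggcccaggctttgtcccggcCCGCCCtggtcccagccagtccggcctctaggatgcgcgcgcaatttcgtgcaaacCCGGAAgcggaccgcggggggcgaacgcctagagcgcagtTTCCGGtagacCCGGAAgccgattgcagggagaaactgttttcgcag
ZNF433: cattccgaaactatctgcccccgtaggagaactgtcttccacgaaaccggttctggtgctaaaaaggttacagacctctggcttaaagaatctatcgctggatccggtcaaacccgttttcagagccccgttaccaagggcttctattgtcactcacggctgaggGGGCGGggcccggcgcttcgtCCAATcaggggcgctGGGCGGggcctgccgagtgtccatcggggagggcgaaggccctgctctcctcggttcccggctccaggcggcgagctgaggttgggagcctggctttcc
ZNF844: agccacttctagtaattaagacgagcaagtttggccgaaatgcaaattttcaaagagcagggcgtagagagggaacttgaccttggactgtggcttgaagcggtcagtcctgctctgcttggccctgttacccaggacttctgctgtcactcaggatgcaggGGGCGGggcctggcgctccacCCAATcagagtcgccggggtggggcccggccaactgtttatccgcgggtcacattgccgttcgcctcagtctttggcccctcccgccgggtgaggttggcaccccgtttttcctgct
ZNF208: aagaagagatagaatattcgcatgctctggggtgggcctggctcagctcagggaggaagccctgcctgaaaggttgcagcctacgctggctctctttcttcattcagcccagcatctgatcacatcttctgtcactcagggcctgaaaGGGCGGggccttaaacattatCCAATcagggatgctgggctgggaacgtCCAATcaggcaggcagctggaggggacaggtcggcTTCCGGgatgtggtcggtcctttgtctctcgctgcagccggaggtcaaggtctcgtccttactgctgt

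The ZNF528 window held CCGGAA 3 times and CCAAT not at all, whereas the ZNF208 window held CCAAT 2 times and CCGGAA 1 time. Across clusters CCAAT, searched on both strands, was found in 25 of 25 windows at 19p12, 31 of 44 at 19p13, 40 of 84 at 19q13.4 and 10 of 51 at 19q13.1-q13.3, against 35.7% of all 27305 promoter windows in the table. CCGGAA was in 19 of 25 windows at 19p12, 58 of 84 at 19q13.4, 19 of 51 at 19q13.1-q13.3 and 15 of 44 at 19p13, against 17.6% of all. GGGCGG was in 69.1% of member windows and 44.6% of all. The octamer ATGCAAAT was in 7 of 44 windows at 19p13 and 3 of 25 at 19p12, in none of the 51 at 19q13.1-q13.3 and none of the 84 at 19q13.4, against 1.8% of all. AAGATGGC, GCGCATGC and TATAAA were in 6.37%, 3.43% and 1.96% of member windows, against 3.03%, 3.27% and 11.95% of all. The median number of CG dinucleotides per window was 10 at 19p12, 18 at 19p13, 22 at 19q13.1-q13.3 and 23.5 at 19q13.4, with 14 over the table. By response in naive H9, CCAAT was in 12 of 24 windows of members that rose, 8 of 16 of those that fell and 80 of 150 of those that did not pass. CCGGAA was in 16 of 24, 7 of 16 and 81 of 150, counts that were not separated by cluster. A letter match is a description of the window only, and neighbouring members share sequence by descent.

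The encoded proteins differed less between clusters. In coding sequences of the GENCODE 29 annotation, available for 234 members, a C2H2 pattern gave a median of 12 fingers per protein, from 0 in ZNF738 to 36 in ZNF208. Either of 2 letter patterns of the KRAB A box was present in 192 of the 234, in 31 of 33 at 19p12, 78 of 95 at 19q13.4, 39 of 46 at 19p13 and 44 of 60 at 19q13.1-q13.3. Among the 18 members with a mean of at least 10 FPKM, 8 held the KRAB pattern. The 178 tested members with the pattern had a median mean level of 3.05 FPKM and at most 15.5, and the 35 without it a median of 5.74 FPKM and at most 53.6.

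Zinc finger genes were widely detected at low level in both states. The median member had a mean of 3.01 FPKM over the 12 libraries, by cluster 2.14 at 19p13, 3.70 at 19p12, 2.046 at 19q13.1-q13.3 and 3.94 at 19q13.4. The test covered the 215 members that reached 1 FPKM in 3 or more libraries, 45, 28, 51 and 91 by cluster. The other 22 did not pass that filter, and 12 of them were under 1 FPKM in all 12 libraries, among them ZNF536, a gene of the nervous system, ZNF541, a testis gene, and ZNF534.

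ZNF146, a protein made almost only of zinc fingers, was the most abundant member. It stood at 58.6, 48.4 and 52.1 FPKM in primed H9, 59.2, 58.4 and 56.6 in naive H9, 53.4, 45.4 and 47.2 in primed RUES2 and 58.2, 53.1 and 53.0 in the libraries labelled naive RUES2. The groups overlapped in both lines, and limma gave log2 differences of 0.13 ± 0.08 (SE, adjusted p = 0.229) and 0.17 ± 0.08 (adjusted p = 0.126). Its locus overlaps that of ZNF565, so fragments of these genes may have been assigned to either. The most abundant members of the other clusters were ZNF581 at 19q13.4 (mean 25.1 FPKM), ZNF358 at 19p13 (17.7) and ZNF93 at 19p12 (12.6). ZNF358 was at 22.9, 21.6 and 17.9 FPKM in primed H9 and 16.5, 15.1 and 17.4 in naive H9, without overlap but short of the threshold (log2 difference -0.33 ± 0.13, adjusted p = 0.0685).

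Summed over all members, RNA of the family overlapped between the states in both lines. The sum ran from 899 to 1062 FPKM in primed H9, 986 to 1001 in naive H9, 1008 to 1266 in primed RUES2 and 938 to 1023 in the libraries labelled naive RUES2. The 19p13 cluster was the one whose sums separated the states in both lines, with 153 to 179 FPKM in primed H9 against 146 to 148 in naive H9, and 163 to 196 in primed RUES2 against 139 to 158 in the libraries labelled naive RUES2. At 19q13.1-q13.3 the sums were 210 to 236 FPKM in primed H9 and 242 to 245 in naive H9. In RUES2 they were 227, 265 and 211 FPKM primed and 244, 232 and 240 in the libraries labelled naive. That overlap rested on primed RUES2 replicate 2. The 19q13.4 cluster gave 45.6% to 48.8% of the family's sum in every library.

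**Figure D1:**
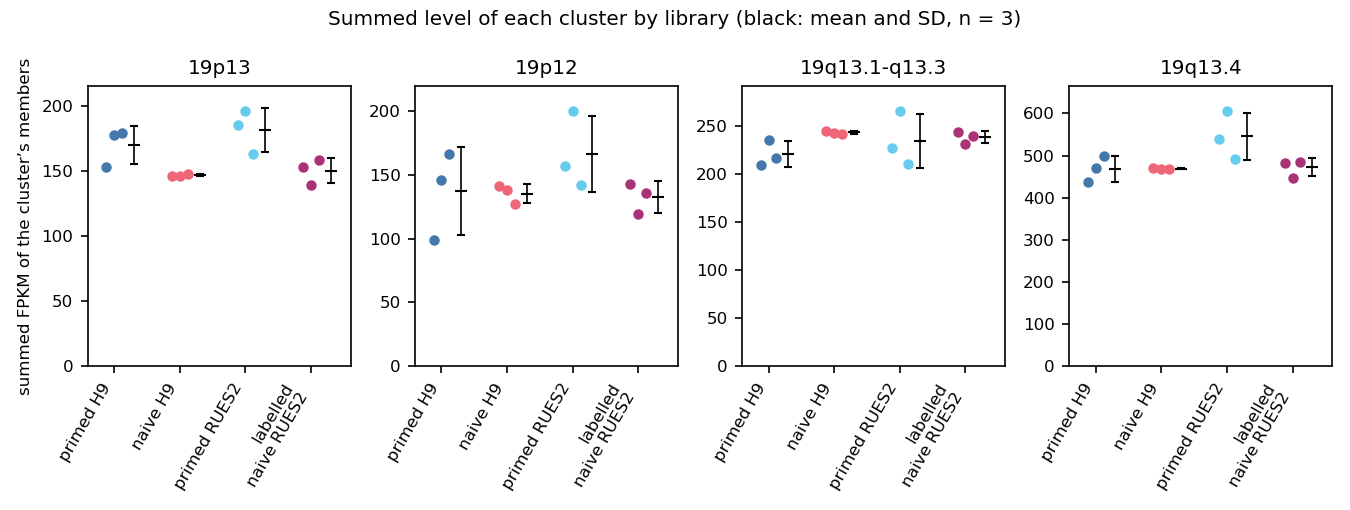
FPKM summed over the members of each cluster, with a point per library, the 4 groups along the x axis and the group mean with its SD (n = 3) in black. At 19p13 each naive library lies below each primed library of its line, while at 19q13.4 naive H9 (468.6 to 469.4) lies inside the range of primed H9 (437 to 499).

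The first comparison asked which members differed between naive and primed H9. Of the 215 tested, 29 rose and 20 fell in naive H9 at an adjusted p under 0.05 (limma on log2(FPKM + 1), Benjamini-Hochberg over 14428 genes), which is 22.8% of the members. Of all genes tested 44.3% were called, 20.4% higher and 23.9% lower. The median log2 difference was 0.01 over the members and -0.01 over all genes. The counts also lay below those of the 848 tested chromosome 19 genes under other names (127 rose and 267 fell) and of the 211 tested ZNF-number genes on other chromosomes (36 rose and 41 fell). The members' median level (3.41 FPKM among those tested) was below that of all genes tested (8.48 FPKM), and its part in the lower count was not tested. Without naive H9 replicate 1 12 members fell, and 3 of them at 19q13.4.

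By cluster, 19 rose and 11 fell of 91 at 19q13.4, 3 rose and 6 fell of 45 at 19p13, 3 rose and 2 fell of 28 at 19p12, and 4 rose and 1 fell of 51 at 19q13.1-q13.3. The medians were 0.08, -0.11, 0.03 and 0.01 on the log2 scale. The share called was thus 33.0% at 19q13.4 and 9.8% at 19q13.1-q13.3, each below the 44.3% of all genes.

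In RUES2 the balance was the other way. Of the same 215 members, 15 rose and 47 fell in the libraries labelled naive RUES2 (28.8%), with 46.8% of all genes called, 23.1% higher and 23.6% lower, and a median of -0.07 against 0.01. By cluster 12 rose and 21 fell at 19q13.4, 1 rose and 13 fell at 19p13, none rose and 7 fell at 19p12, and 2 rose and 6 fell at 19q13.1-q13.3. Without primed RUES2 replicate 2, 23 members rose, so that library alone moved the count by more than 1.5 times. Without the library labelled naive RUES2 replicate 2, 29 fell. At 19p12, where 0 members rose, 9 differed at an unadjusted p under 0.05, the 7 that fell among them.

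**Figure D2:**
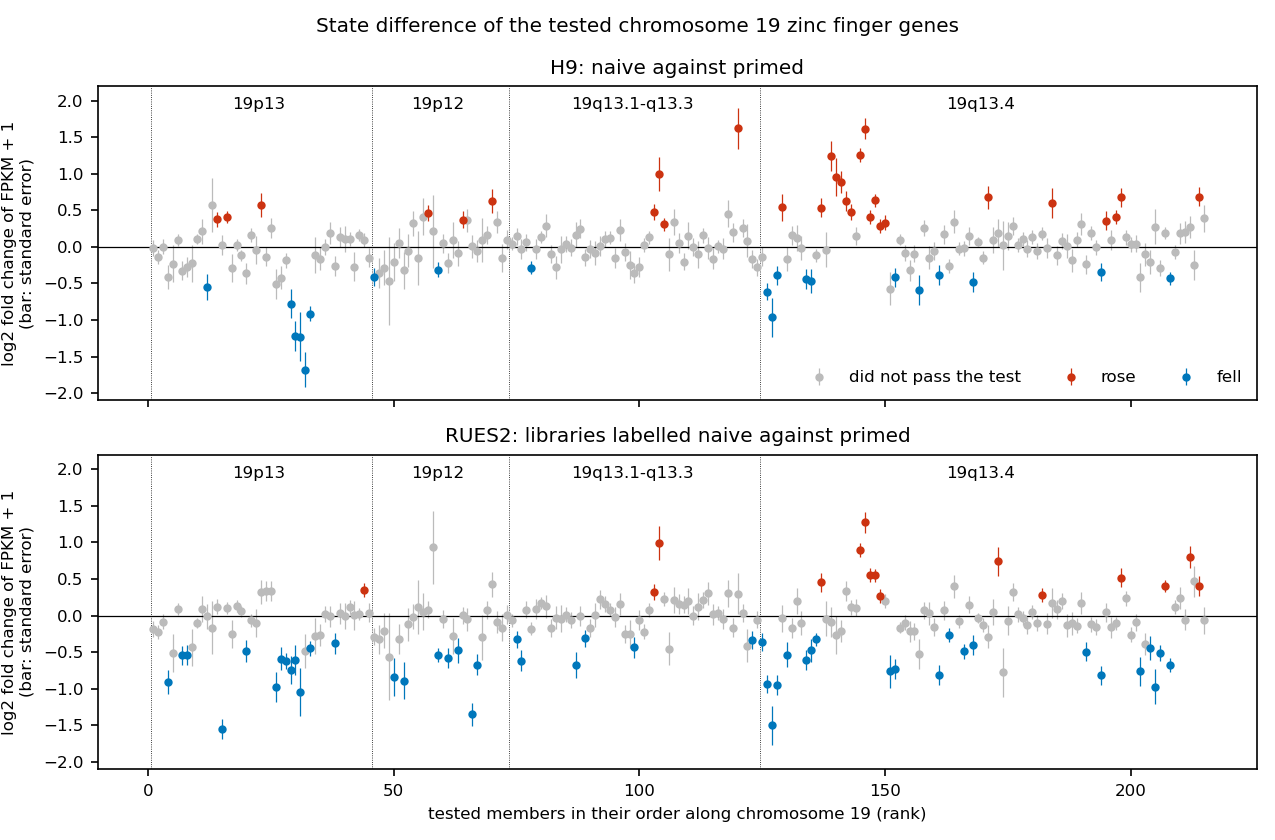
Log2 fold change of FPKM + 1 (naive against primed, bar: standard error) of the 215 tested members in their order along chromosome 19, for H9 above and for the libraries labelled RUES2 below, with rose in red, fell in blue and not passed in grey. In H9 a block of falls stands at 19p13 and a block of rises at 19q13.4, and most members between them lie near 0.

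In both lines 10 members rose and 15 fell, and 0 were called in opposite directions. Of all genes, 13.2% rose and 16.5% fell in both. With the further demand that no naive library overlapped a primed one in either line, 9 members rose and 14 fell, against 12.9% and 16.2% of all genes. Those that rose were ZNF576 and ZNF428 at 19q13.1-q13.3 and ZNF480, ZNF611, ZNF600, ZNF28, ZNF468, ZNF552 and ZNF324 at 19q13.4. Those that fell were ZNF763, ZNF433, ZNF878 and ZNF788 at 19p13, ZNF431 at 19p12, and ZNF577, ZNF649, ZNF613, ZNF616, ZNF836, ZNF331, ZNF581, ZNF154 and ZNF544 at 19q13.4.

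Some called members stood side by side on the chromosome. Across 211 pairs of neighbouring tested members of a cluster, the fold changes had a Pearson r of 0.45 and a Spearman rho of 0.23 in H9, and 106 pairs had the same sign. In RUES2 the values were 0.34, 0.32 and 131 pairs. These are descriptions only, since neighbours can share sequence and the fragments assigned to it. Neighbourhoods named below were chosen after their values were seen, so their counts are descriptions.

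The first was the stretch from ZNF480 to ZNF816 at 19q13.4 (hg19 chr19:52800426-53466164), with 15 listed members, 14 of them tested, and the KRAB pattern in 14. In naive H9 12 rose and 0 fell, and the other tested members were ZNF610 (log2 difference -0.04) and ZNF83 (0.15). All tested members of it bar ZNF610 had a fold change above 0. In the libraries labelled naive RUES2 6 rose and 0 fell. The FPKM of the stretch summed to 47.3, 47.0 and 49.3 in primed H9 and 82.4, 76.9 and 78.6 in naive H9. It summed to 58.1, 72.4 and 55.7 in primed RUES2 and 86.4, 74.7 and 80.9 in the libraries labelled naive RUES2. The states did not overlap in either line, and the primed RUES2 sums lay above the primed H9 ones. Genes of the stretch outside the name rule did not move alike. The pseudogene ZNF137P had a log2 difference of 0.34 ± 0.14 (adjusted p = 0.0734) in H9, and ZNF321P, which shares a read-through transcript with ZNF816, fell by 0.34 (SE 0.11, adjusted p = 0.0297).

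ZNF600 had the largest change of the stretch in both lines. It was listed at 2.37, 1.68 and 2.66 FPKM in primed H9 and 9.82, 8.48 and 8.21 in naive H9, and at 3.34, 3.05 and 3.07 in primed RUES2 and 10.1, 7.26 and 10.02 in the libraries labelled naive RUES2. Every naive value was above every primed value of both lines. The log2 fold change was 1.61 ± 0.14 (adjusted p = 1.74e-05) in H9 and 1.27 ± 0.14 (adjusted p = 7.3e-05) in RUES2.

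Its neighbour ZNF611, whose window is shown above, stood at 2.16, 2.11 and 1.72 FPKM in primed H9 and 6.26, 6.03 and 6.11 in naive H9. In RUES2 it stood at 2.47, 2.74 and 2.33 FPKM primed and 6.04, 5.00 and 5.58 in the libraries labelled naive. The states were again apart in both lines, with log2 fold changes of 1.25 ± 0.09 (adjusted p = 5.02e-06) and 0.89 ± 0.09 (adjusted p = 4.01e-05). The next genes, ZNF28 and ZNF468, named because they complete this run, rose less: by 0.41 ± 0.09 (adjusted p = 0.0053) and 0.63 ± 0.09 (adjusted p = 0.000299) in H9 and by 0.55 ± 0.09 each in RUES2 (adjusted p = 0.000908 and 0.000633). These 4 calls held in both lines without any 1 library.

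ZNF808, known for silencing MER11 endogenous retroviral sequences in the developing pancreas, was at 2.94, 2.02 and 3.25 FPKM in primed H9 and 5.26, 4.25 and 4.68 in naive H9. It rose by 0.63 ± 0.13 on the log2 scale (adjusted p = 0.00354), and in RUES2 the difference was 0.34 ± 0.13 (adjusted p = 0.0594). ZNF320 and ZNF816, at the far end, gave the least stable calls of the run. ZNF320 rose by 0.28 ± 0.10 in H9 (adjusted p = 0.0378), which ended without naive H9 replicate 1 or 3, primed H9 replicate 1 or 3, primed RUES2 replicate 1 or the library labelled naive RUES2 replicate 1 (0.0517 to 0.12). ZNF816 rose by 0.33 ± 0.10 (adjusted p = 0.0218), which ended without naive H9 replicate 1 or 2 or primed H9 replicate 1 (0.0654 to 0.0685).

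Members inside the stretch also differed between the lines. ZNF880 was listed at 0.446, 0.252 and 1.04 FPKM in primed H9, 2.30, 2.56 and 3.20 in naive H9, 6.84, 10.5 and 6.35 in primed RUES2 and 7.89, 6.54 and 7.27 in the libraries labelled naive RUES2. It was low in primed H9 alone, with naive H9 between that and RUES2. It rose by 1.25 ± 0.21 in naive H9 (adjusted p = 0.000838), and primed RUES2 exceeded primed H9 by 2.495 ± 0.21 (adjusted p = 0.000217). Leaving out primed RUES2 replicate 2, that line difference was 2.30 ± 0.19 (adjusted p = 0.00036). ZNF528 was at 0.531, 0.549 and 0.604 FPKM in primed H9, 2.01, 1.74 and 2.37 in naive H9 and 3.08, 7.44 and 2.497 in primed RUES2. In the libraries labelled naive RUES2 it was at 3.33, 3.02 and 3.02. It rose by 0.96 ± 0.26 in naive H9 (adjusted p = 0.0131), and the primed lines differed by 1.66 ± 0.26 (adjusted p = 0.0162). Without primed RUES2 replicate 2 that line difference was 1.27 ± 0.11 (adjusted p = 0.000555), and its adjusted p was 0.0559 without the 3 libraries labelled naive RUES2 and 0.212 with only the primed groups fitted. ZNF480, which opens the stretch, stood at 6.97, 7.99 and 5.63 FPKM in primed H9 and rose by 0.53 ± 0.13 (adjusted p = 0.00682), and by 0.45 ± 0.13 in RUES2 (adjusted p = 0.0144, or 0.0595 without primed RUES2 replicate 1).

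**Figure D3:**
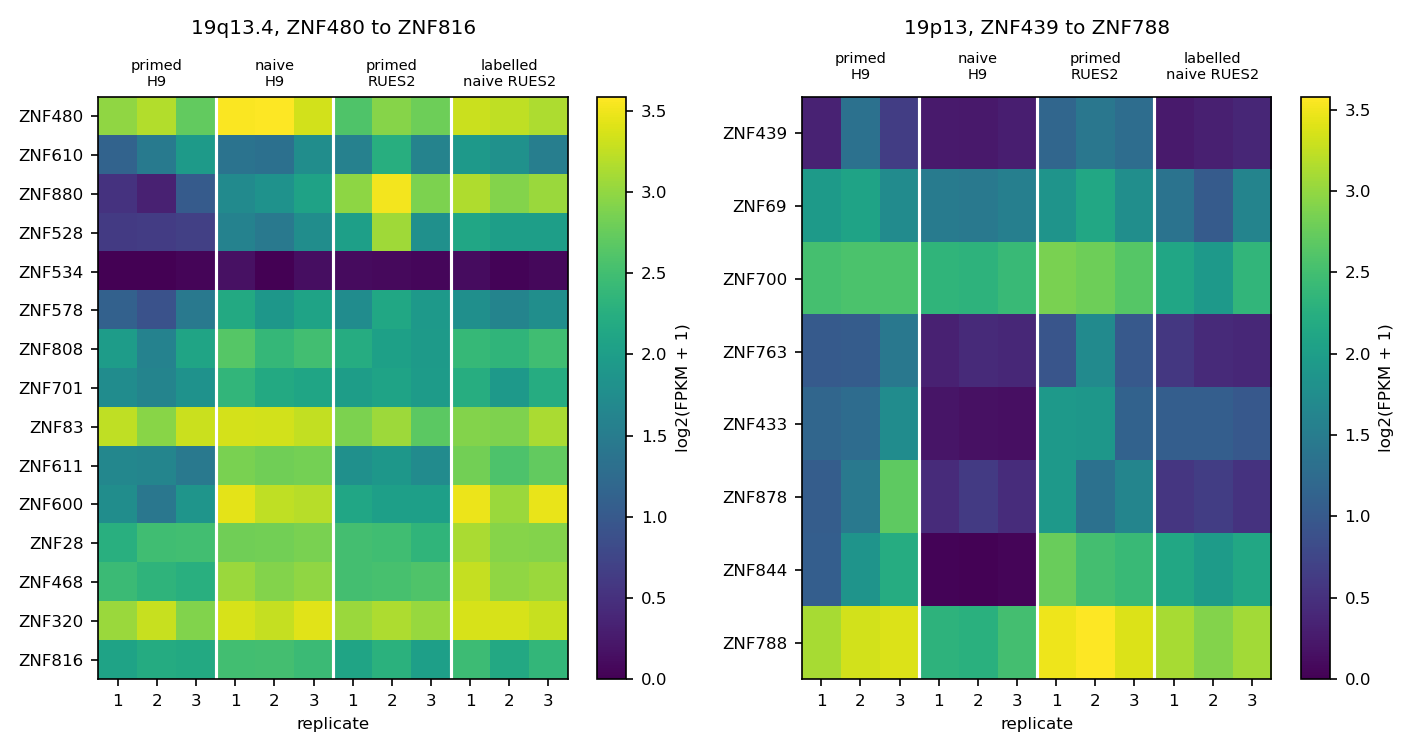
Level as log2(FPKM + 1), on a colour scale, of each listed member (rows, in chromosome order) in each of the 12 libraries (columns, 3 replicates per group) for the stretch from ZNF480 to ZNF816 and for that from ZNF439 to ZNF788. ZNF611 and ZNF600 are brighter in naive libraries of both lines, ZNF880 and ZNF528 are dark in primed H9, and ZNF844 is dark in naive H9 (0.00983 to 0.0386 FPKM).

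The second neighbourhood ran from ZNF439 to ZNF788 at 19p13 (hg19 chr19:11976844-12225494) and held 8 members, all tested. In naive H9 5 fell (ZNF763, ZNF433, ZNF878, ZNF844 and ZNF788) and 0 rose. In the libraries labelled naive RUES2 7 fell, all but ZNF844. For each of the 8 members, naive and primed libraries did not overlap in either line, in a stretch chosen after these values were seen. The share of all genes without such overlap, called or not, was not counted, so this is a description only. The stretch summed to 19.9, 25.6 and 30.4 FPKM in primed H9 and 10.9, 10.7 and 12.1 in naive H9. It summed to 32.7, 33.1 and 27.2 FPKM in primed RUES2 and 18.3, 15.6 and 19.1 in the libraries labelled naive RUES2.

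ZNF844 had the lowest levels of the stretch in naive H9. It was at 1.096, 2.62 and 3.65 FPKM in primed H9 and 0.0250, 0.00983 and 0.0386 in naive H9, a fall of 1.68 on the log2 scale (SE 0.23, adjusted p = 0.000295). In RUES2 it was at 5.80, 4.71 and 4.39 FPKM primed and 3.44, 2.89 and 3.44 in the libraries labelled naive (difference -0.48 ± 0.23, adjusted p = 0.116). The libraries labelled naive RUES2 exceeded naive H9 by 2.053 ± 0.23 (adjusted p = 0.000415), the largest such difference of a member. The test of whether the state difference itself varied between the lines gave 1.20 ± 0.33 (adjusted p = 0.063).

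ZNF433, in the same run, was at 1.27, 1.40 and 2.33 FPKM in primed H9 and 0.156, 0.113 and 0.111 in naive H9. It fell by 1.22 (SE 0.21, adjusted p = 0.00105). In RUES2 it was at 2.82, 2.71 and 1.19 FPKM primed and 1.098, 1.095 and 0.986 in the libraries labelled naive. That fall of 0.61 (adjusted p = 0.0345) ended on leaving out primed RUES2 replicate 1 or 2 or 1 of the 3 labelled naive RUES2 (0.07 to 0.127). ZNF788, named because it closes the run, had the highest level of the stretch, 7.61, 9.11 and 9.52 FPKM in primed H9 against 3.98, 3.85 and 4.69 in naive H9. It fell by 0.91 (SE 0.10, adjusted p = 8.1e-05) there and by 0.45 (SE 0.10, adjusted p = 0.00535) in RUES2.

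ZNF763 was at 1.02, 1.06 and 1.71 FPKM in primed H9 and 0.260, 0.348 and 0.318 in naive H9. Its fall was alike in both lines, 0.78 (SE 0.19, adjusted p = 0.00869) in H9 and 0.75 (SE 0.19, adjusted p = 0.00964) in RUES2. ZNF878 was at 1.09, 1.72 and 5.44 FPKM in primed H9 and 0.352, 0.526 and 0.375 in naive H9, with a wide spread among the primed libraries. It fell by 1.23 (SE 0.33, adjusted p = 0.0131), a call that ended when H9 was fitted alone (0.056). Its fall in RUES2 (1.05, adjusted p = 0.0256) ended on leaving out primed RUES2 replicate 1 or 3 or 1 of those labelled naive RUES2 (0.0542 to 0.0892).

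Another neighbourhood, from ZNF577 to ZNF836 at 19q13.4 (hg19 chr19:52359056-52674896), lay just before the rising stretch. Of its 10 members, all tested, 5 fell and 1 rose in naive H9, and 6 fell and 0 rose in the libraries labelled naive RUES2. The members that fell in both were ZNF577, ZNF649, ZNF613, ZNF616 and ZNF836. Its sum was uneven within primed H9, at 38.8, 55.8 and 71.5 FPKM, and overlapped naive H9 at 39.5, 39.8 and 38.5. In RUES2 the sums were 79.7, 82.4 and 71.8 FPKM primed and 47.1, 39.5 and 43.3 in the libraries labelled naive.

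ZNF649 gave most of that spread. It was at 10.1, 17.3 and 28.4 FPKM in primed H9, 8.47, 8.53 and 7.92 in naive H9, 27.3, 27.5 and 24.69 in primed RUES2 and 9.74, 7.89 and 8.62 in the libraries labelled naive RUES2. Naive values were tight in both lines, while primed H9 spanned the range from near the naive level to the primed RUES2 level. It fell by 0.96 (SE 0.27, adjusted p = 0.014) in H9, a call that ended when H9 was fitted alone (0.065), and by 1.499 (SE 0.27, adjusted p = 0.00117) in RUES2. ZNF577 was at 6.40, 8.03 and 9.06 FPKM in primed H9 and 4.77, 4.55 and 4.86 in naive H9, a fall of 0.61 (SE 0.12, adjusted p = 0.00211). In RUES2 it fell from 13.2998, 12.04 and 10.2 FPKM to 5.497, 5.85 and 5.75 (0.93, SE 0.12, adjusted p = 0.000151). ZNF613 fell by 0.95 (SE 0.13, adjusted p = 0.000279) in RUES2 and by 0.39 (SE 0.13, adjusted p = 0.0364) in H9. Leaving out 1 naive H9 library, primed H9 replicate 3 or primed RUES2 replicate 1 ended the H9 call (0.0505 to 0.114).

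Other called members lay outside these stretches. ZNF552 at 19q13.4 was at 5.19, 5.85 and 3.81 FPKM in primed H9 and 8.39, 8.38 and 8.44 in naive H9. It rose by 0.68 ± 0.13 (adjusted p = 0.00185) there and by 0.52 ± 0.13 (adjusted p = 0.00733) in RUES2. At 19q13.1-q13.3 the neighbours ZNF576 and ZNF428 rose. ZNF428, in which 1 finger was found, was at 10.5, 16.3 and 7.03 FPKM in primed H9 and 22.5, 22.4 and 22.0 in naive H9 (1.00 ± 0.23, adjusted p = 0.00643). In RUES2 it was at 7.49, 10.2 and 11.2 FPKM primed and 20.6, 17.4 and 21.8 in the libraries labelled naive (0.99 ± 0.23, adjusted p = 0.00598). Its locus overlaps SRRM5, which may share its fragments. ZNF576 rose by 0.48 ± 0.11 (adjusted p = 0.0053) in H9. Its rise in RUES2 (0.32 ± 0.11, adjusted p = 0.0324) ended on leaving out 1 of the 3 primed RUES2 libraries or of replicates 1 and 2 of those labelled naive (0.0639 to 0.114).

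ZNF431 at 19p12 fell in both lines. It was at 7.65, 7.55 and 8.30 FPKM in primed H9 and 6.34, 6.63 and 5.44 in naive H9, a fall of 0.31 (SE 0.10, adjusted p = 0.0249) that ended without naive H9 replicate 3 (0.0979) or primed H9 replicate 3 (0.0723). In RUES2 it fell by 0.54 (SE 0.10, adjusted p = 0.00131). ZNF581 fell by 0.48 (SE 0.14, adjusted p = 0.0175) in H9, or 0.0542 without naive H9 replicate 1, and by 0.40 (SE 0.14, adjusted p = 0.0354) in RUES2, a call that ended in 6 of the 12 fits that left out 1 library (0.05 to 0.116).

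The largest rise of a member in H9 was that of ZNF229 at 19q13.1-q13.3, named for that after its values were seen. It was listed at 0, 1.16 and 0.396 FPKM in primed H9 and at 3.45, 2.85 and 4.12 in naive H9 (1.62 ± 0.28, adjusted p = 0.00119). In RUES2 it was at 1.21, 3.08 and 1.47 FPKM primed and 2.58, 2.56 and 2.25 in the libraries labelled naive (0.30 ± 0.28, adjusted p = 0.413).

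Members with a known target or role were described whether or not they moved, from a list of 23 of which 16 were tested. Of these 2 rose and 3 fell in H9, and 1 rose and 6 fell in RUES2. Of all genes tested 44.3% were called in H9 and 46.8% in RUES2, so the counts do not set this list apart. ZNF91, which binds SVA elements, was at 5.33, 5.53 and 6.51 FPKM in primed H9 and 6.75, 6.96 and 6.10 in naive H9, with overlap (0.17 ± 0.13, adjusted p = 0.31). It was at 5.78, 6.33 and 4.23 FPKM in primed RUES2 and 6.12, 5.37 and 5.74 in the libraries labelled naive (0.08 ± 0.13, adjusted p = 0.636). ZNF93, which binds LINE-1 elements, was uneven in primed H9 at 7.93, 15.001 and 19.5 FPKM, around the naive H9 values of 12.5, 11.5 and 10.3 (-0.20 ± 0.26, adjusted p = 0.55). In RUES2 it was at 16.6, 18.1 and 13.9 FPKM primed and 9.92, 6.74 and 9.26 in the libraries labelled naive. That fall of 0.84 (SE 0.26, adjusted p = 0.0215) ended without primed RUES2 replicate 1 or 2 or the library labelled naive RUES2 replicate 2 (0.0584 to 0.0804).

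ZNF274 recruits SETDB1 to the ends of zinc finger genes themselves. It was at 7.41, 9.0005 and 7.68 FPKM in primed H9 and 9.32, 9.05 and 9.31 in naive H9 (0.18 ± 0.08, adjusted p = 0.0931). In RUES2 it rose from 8.14, 8.71 and 7.44 FPKM to 11.3, 11.1 and 10.8 (0.41 ± 0.08, adjusted p = 0.00246). ZNF417 and ZNF587, close paralogs that silence HERV-K, did not pass the test in either line (log2 differences of 0.04, -0.09, 0.13 and 0.23, each ± 0.10 to 0.12). As near copies they may share fragments.

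ZNF331, an imprinted gene, was at 17.2, 15.2 and 18.5 FPKM in primed H9 and 12.3, 11.8 and 14.1 in naive H9. It was at 15.9, 19.6 and 13.5 FPKM in primed RUES2 and 7.82, 8.46 and 10.1 in the libraries labelled naive, a fall of 0.82 (SE 0.14, adjusted p = 0.000879). The H9 fall of 0.38 (SE 0.14, adjusted p = 0.0439) ended without naive H9 replicate 1 or 2, primed H9 replicate 1 or 3, primed RUES2 replicate 1 or the library labelled naive RUES2 replicate 2 (0.0551 to 0.131). ZNF154, whose promoter is often methylated in tumours, fell by 0.82 (SE 0.12, adjusted p = 0.000454) in RUES2. Its values there were 6.47, 7.88 and 5.63 FPKM primed and 3.46, 2.71 and 3.84 in the libraries labelled naive. In H9 the fall of 0.34 (SE 0.12) was at the threshold (adjusted p = 0.0476) and ended without 7 of the 12 libraries taken 1 at a time, the 3 naive H9 ones, primed H9 replicates 1 and 2, and replicate 1 of each RUES2 group. ZNF43, ZNF85 and ZNF382 did not pass in either line, with differences between -0.05 and 0.41.

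The second question was how the lines differed within a state. In the primed state 15 members were higher in RUES2 than in H9 and 0 were lower, 6.98% of those tested. Of all genes 1.82% were called, 1.34% higher and 0.471% lower. At an unadjusted p under 0.05 there were 52 members, and 2063 of the 14428 genes tested. Fitted on the primed groups alone the count was 3, and without primed H9 replicate 1 it was 7. The 15 comprised 3 at 19p13, 3 at 19p12, 2 at 19q13.1-q13.3 and 7 at 19q13.4.

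ZNF560 at 19p13 was the clearest. It was listed at 0 in all 3 primed H9 libraries and at 0.0173, 0.0205 and 0.0114 FPKM in naive H9. It stood at 2.66, 4.38 and 2.96 FPKM in primed RUES2 and 0.539, 0.307 and 0.541 in the libraries labelled naive RUES2. It was thus near 0 in every H9 library and highest in primed RUES2. It reached 1 FPKM only in primed RUES2, so it passed the filter through the group in which it was high. Its calls are therefore not independent of that choice and describe its levels only. The primed lines differed by 2.096 ± 0.14 on the log2(FPKM + 1) scale (adjusted p = 6.57e-05), and by 1.93 ± 0.10 without primed RUES2 replicate 2 (adjusted p = 2.03e-05).

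ZNF208 at 19p12, the member with the most fingers, followed the same order. It too reached 1 FPKM only in primed RUES2 and so passed the filter through that group. It was at 0.0804, 0.0999 and 0.144 FPKM in primed H9, 0.114, 0.128 and 0.106 in naive H9, 2.049, 3.91 and 2.90 in primed RUES2 and 0.373, 0.750 and 0.471 in the libraries labelled naive RUES2. The primed lines differed by 1.81 ± 0.16 (adjusted p = 0.00032), or by 1.64 ± 0.14 without primed RUES2 replicate 2 (adjusted p = 0.000355), and it fell by 1.35 (SE 0.16, adjusted p = 9.36e-05) in RUES2. Leaving that library out, its state difference in RUES2 was -1.18 ± 0.14 (adjusted p = 0.000207). ZNF667 at 19q13.4 was between 0.0616 and 0.141 FPKM in all 6 H9 libraries, at 2.03, 7.41 and 2.27 in primed RUES2 and at 1.33, 2.41 and 1.09 in the libraries labelled naive RUES2. It reached 1 FPKM only in libraries labelled RUES2. The primed lines differed by 2.01 ± 0.33 (adjusted p = 0.0205), which ended without primed H9 replicate 1 (0.0576) and with only the primed groups fitted (0.211), and by 1.54 ± 0.18 without primed RUES2 replicate 2 (adjusted p = 0.00264). ZNF257, beside ZNF208, differed by 0.90 ± 0.15 (adjusted p = 0.0207), or by 0.70 ± 0.10 without primed RUES2 replicate 2 (adjusted p = 0.00828). The call ended without primed H9 replicate 1 or primed RUES2 replicate 1 (0.0653 and 0.0644), without the 3 libraries labelled naive RUES2 (0.0584) and with only the primed groups fitted (0.213).

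The neighbours of ZNF208 showed what primed RUES2 replicate 2 contributed. From ZNF208 to ZNF728 (hg19 chr19:22148897-23186010) 8 members are listed, and 3 passed the filter. The 8 summed to 2.09999 to 2.52 FPKM in primed H9, 2.36 to 2.46 in naive H9 and 3.09 to 3.61 in the libraries labelled naive RUES2. It was 5.79, 20.0 and 6.20 FPKM in primed RUES2 replicates 1, 2 and 3. ZNF98 was at 0.421, 3.25 and 0.327 FPKM in those 3 libraries, and between 0.384 and 0.545 in the other 9. ZNF728 was at 0.418, 3.18 and 0.528 FPKM, ZNF99 at 0.214, 1.53 and 0.231, ZNF676 at 0.394, 1.31 and 0.306 and ZNF729 at 0.0861, 0.676 and 0.0629. ZNF492, which was tested, was at 0.924, 3.96 and 0.807 FPKM, and the difference between the primed lines did not pass (0.56 ± 0.30, adjusted p = 0.45, and 0.09 ± 0.09, adjusted p = 0.701, without that library). Replicate 2 was the highest library for each of the 8. The differences of ZNF208 and ZNF257 between the primed lines passed without it as well, whereas that of ZNF492 passed neither way. The 5 members below the filter were not tested. What set that library apart was not tested.

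**Figure D4:**
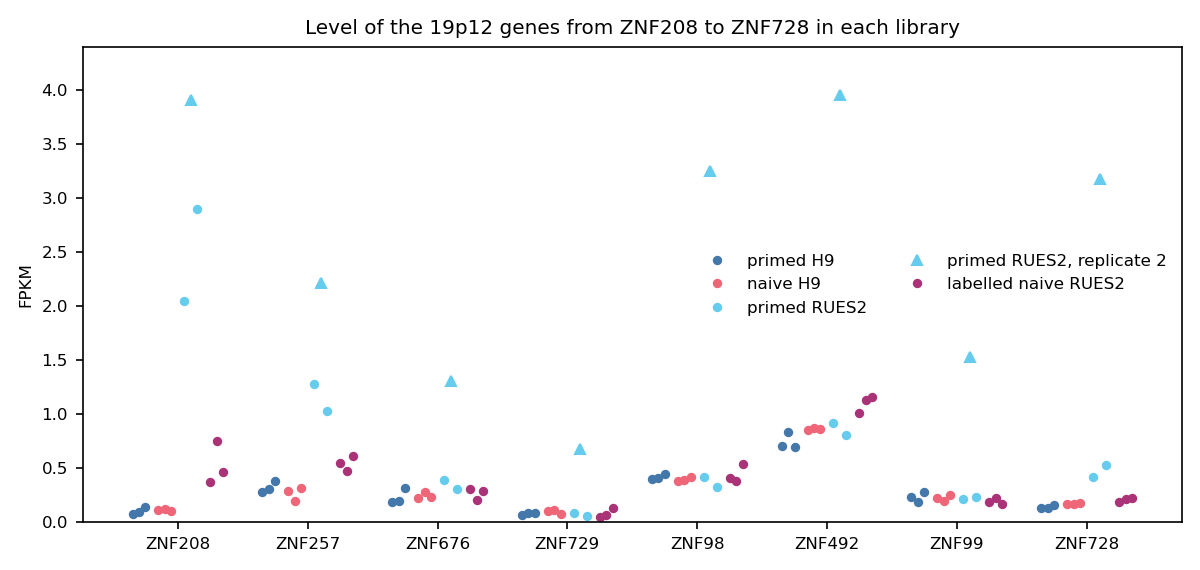
FPKM of the 8 members from ZNF208 to ZNF728 at 19p12 in each of the 12 libraries, coloured by group, with a triangle for primed RUES2 replicate 2. The triangle is the highest point for each gene, from 0.676 FPKM for ZNF729 to 3.96 for ZNF492, and the other primed RUES2 libraries stand clear of H9 for ZNF208 and ZNF257.

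Single libraries also differed at other members. The widest spread within primed H9 was that of ZNF253 (19p12), at 0.787, 11.7 and 11.7 FPKM, with naive H9 at 3.54, 3.64 and 4.19. The widest within primed RUES2 was that of ZNF714 (19p12), at 0.815, 8.16 and 0.735 FPKM, with the libraries labelled naive RUES2 at 4.95, 4.98 and 4.66. In naive H9 the widest SD on the log2 scale was 0.24 (ZNF610), against 1.63 in primed H9 and 1.37 in primed RUES2. Over the tested members the median SD was 0.18 in each primed group, 0.08 in naive H9 and 0.12 in the libraries labelled naive RUES2. Over all genes tested it was 0.17, 0.14, 0.08 and 0.12 in primed H9, primed RUES2, naive H9 and the libraries labelled naive RUES2.

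In the naive state 21 members were higher in the libraries labelled RUES2 than in H9 and 7 were lower, 13.02% of those tested, with 15.9% of all genes called (11.2% higher and 4.69% lower). Without naive H9 replicate 2, 10 were higher. Of the 15 members higher in the primed state, 8 were higher in this one too. The same overlap was not counted over all genes, so it is not read as particular to the members. The largest after ZNF844 were ZNF506 at 19p12 and ZNF667. ZNF506 was at 1.01, 1.01 and 1.21 FPKM in naive H9 and 3.91, 3.58 and 3.94 in the libraries labelled naive RUES2 (1.21 ± 0.24, adjusted p = 0.00853). ZNF667 differed by 1.21 ± 0.33 (adjusted p = 0.0339), which ended on leaving out 1 naive H9 library or replicate 1 or 2 of those labelled naive RUES2 (0.0698 to 0.128). The lowest were ZNF558 (-1.24 ± 0.25, adjusted p = 0.00922), ZNF285 (-0.67 ± 0.13, adjusted p = 0.00763) and ZNF154 (-0.57 ± 0.12, adjusted p = 0.0121). ZNF558 was at 7.94, 6.86 and 6.58 FPKM in naive H9 and 2.66, 1.88 and 2.85 in the libraries labelled naive RUES2.

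The test of the state difference between the lines called 0 members higher and 6 lower in RUES2 than in H9, with 28 at an unadjusted p under 0.05. Of all genes 5.7% were called, 3.77% higher and 1.93% lower. ZNF560 gave -1.58 ± 0.19 (adjusted p = 0.0024), ZNF208 -1.36 ± 0.22 (adjusted p = 0.0079) and ZNF880 -1.33 ± 0.29 (adjusted p = 0.0262). This difference shares its samples with the comparisons above. ZNF560 and ZNF208 were highest in primed RUES2, the only group through which they passed the filter, and ZNF880 was lowest in primed H9. Without naive H9 replicate 1, 3 members were called.

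Genes that act with KRAB proteins were taken from a fixed list of 26, of which 25 were tested. In naive H9 7 rose and 3 fell, with a median of 0.06, and in the libraries labelled naive RUES2 4 rose and 5 fell, with a median of -0.10. These 10 and 9 calls of 25 were no larger a share than the 44.3% and 46.8% of all genes, so the counts set the list apart in neither line. TRIM28, the corepressor itself, was at 279, 282 and 220 FPKM in primed H9, 246, 268 and 256 in naive H9, 271, 274 and 286 in primed RUES2 and 257, 266 and 252 in the libraries labelled naive RUES2. It did not pass the test in H9 (-0.01 ± 0.09, adjusted p = 0.938) or RUES2 (-0.10 ± 0.09, adjusted p = 0.399). SETDB1, the methyltransferase it recruits, was at 13.28 to 16.5 FPKM in primed and 13.37 to 20.5 in naive libraries (-0.07 ± 0.11, adjusted p = 0.637, and 0.21 ± 0.11, adjusted p = 0.165). ZFP57, a KRAB protein that guards imprints, did not pass the filter.

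Of the 3 listed subunits of the HUSH silencing complex, 2 rose. MPHOSPH8 was at 11.7, 11.7 and 11.2 FPKM in primed H9 and 15.5, 13.9 and 15.8 in naive H9 (0.36 ± 0.07, adjusted p = 0.00208), and rose by 0.36 ± 0.07 in RUES2 too (adjusted p = 0.0019). PPHLN1 rose by 0.42 ± 0.08 (adjusted p = 0.00217) in H9 and 0.48 ± 0.08 (adjusted p = 0.000842) in RUES2. The other listed subunit, FAM208A, did not pass (-0.12 and 0.15, each ± 0.08). SMARCAD1, a remodeler that binds TRIM28, rose by 0.47 ± 0.11 (adjusted p = 0.00695) and 0.44 ± 0.11 (adjusted p = 0.00954).

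The EHMT1 and EHMT2 pair, which writes mono- and dimethylated H3K9, fell. EHMT2 was at 38.8, 46.6 and 30.3 FPKM in primed H9 and 23.6, 24.2 and 24.4 in naive H9, and fell by 0.64 (SE 0.13, adjusted p = 0.00339) there and by 0.81 (SE 0.13, adjusted p = 0.000761) in RUES2. EHMT1 fell by 0.28 (SE 0.07, adjusted p = 0.0109) and 0.41 (SE 0.07, adjusted p = 0.00111). CBX5, an HP1 protein that reads methylated H3K9, was at 31.9, 35.9 and 33.2 FPKM in primed H9 and 24.5, 24.2 and 23.1 in naive H9 and fell by 0.47 (SE 0.09, adjusted p = 0.00226). Its fall in RUES2 (0.28, SE 0.09, adjusted p = 0.028) ended without replicates 1 or 2 of either RUES2 group (0.0572 to 0.0917). UHRF1, which brings DNMT1 to newly copied DNA, was uneven in primed H9 at 23.5, 28.8 and 7.92 FPKM and stood at 45.6, 46.9 and 42.1 in naive H9 (1.29 ± 0.36, adjusted p = 0.0137), a call that ended when H9 was fitted alone (0.0612). SUV39H1 rose by 0.57 ± 0.11 (adjusted p = 0.00215) in H9 and HDAC1 by 0.34 ± 0.10 (adjusted p = 0.0141), the latter ended without naive H9 replicate 3 (0.0518). SUV39H1 did not pass in RUES2 (-0.18 ± 0.11, adjusted p = 0.208). Its state difference was lower in RUES2 than in H9 (-0.74 ± 0.16, adjusted p = 0.0217). That call ended without naive H9 replicate 1 or 3 or replicate 1 of either RUES2 group (0.0521 to 0.0607). In RUES2 CHD3, a remodeler of the NuRD complex, rose by 1.48 ± 0.23 (adjusted p = 0.00053). There CBX1, another HP1 protein, fell by 0.32 (SE 0.09, adjusted p = 0.018), which ended without replicate 1 primed (0.0551) or replicate 2 labelled naive (0.0614). ATRX, a remodeler of heterochromatin, fell by 0.30 (SE 0.10, adjusted p = 0.0308), which ended without replicate 1 or 2 primed or 1 of those labelled naive (0.055 to 0.0867). In the naive state ATRX (-0.77 ± 0.10, adjusted p = 0.000829) and SUV39H1 (-0.46 ± 0.11, adjusted p = 0.0182) were lower in the libraries labelled RUES2 than in H9. CHD3 was higher there (1.00 ± 0.23, adjusted p = 0.0156). The SUV39H1 and CHD3 calls each ended in 3 of the 12 fits that left out 1 library (0.0541 to 0.0703).

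**Figure D5:**
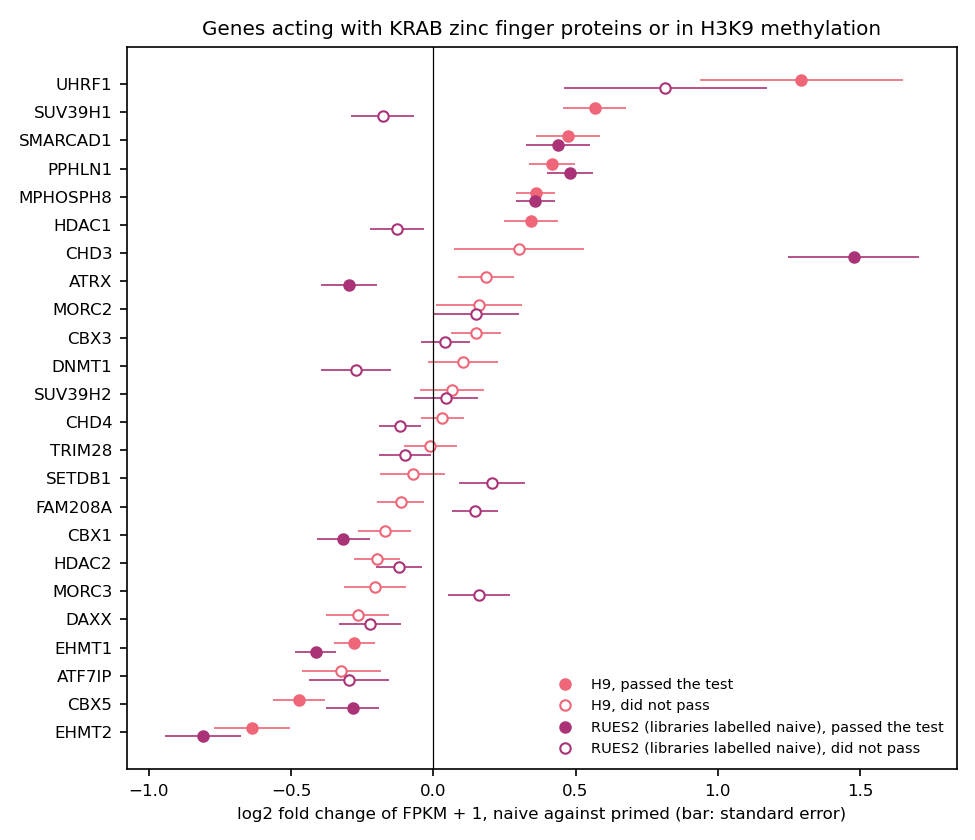
Log2 fold change of FPKM + 1 (naive against primed, bar: standard error) of 24 of the 25 tested genes that act with KRAB proteins or in H3K9 methylation, for H9 and for the libraries labelled RUES2, filled where the test was passed. TRIM28 and SETDB1 lie near 0, MPHOSPH8, PPHLN1 and SMARCAD1 are filled to the right in both lines, and EHMT2, CBX5 and EHMT1 are filled to the left.

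Chromosome 19 genes of the same fold under other names were also called in both directions. Of 17 listed, 11 were tested, and 0 rose and 3 fell in naive H9 (ZFP14, ZIK1 and ZSCAN18, named because they are the whole count). In the libraries labelled naive RUES2 2 rose and 3 fell. Of all genes tested 44.3% were called in H9 and 46.8% in RUES2. ZIM2, ZIM3, PEG3, ZSCAN1, ZSCAN4 and ZSCAN5B were under 1 FPKM in all 12 libraries.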

How the data were processed

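PolyA RNA of 12 libraries, 3 in each of 4 groups, was analysed. Tools and build named in the submitters' processing notes are TopHat2 2.1.1, bcl2fastq 2.17.1.14 and hg19. Not given in the sources used here are the quantifier and the gene models. Per the file headers the authors deposited FPKM per gene with confidence bounds, while the design text says RPKM; depth is known only through those bounds. Each table has 25278 entries. Haplotype contigs were dropped, a symbol listed at several loci kept the locus with the highest mean, and 2 symbols with a failed estimate were left out.

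Values were tested as log2(FPKM + 1), which understates changes of low genes, with limma 3.58.1 (1 model, a mean per group, variance trend, two-sided) over the 14428 genes that reached 1 FPKM in 3 or more libraries, Benjamini-Hochberg adjusted and called under 0.05. SE is limma's moderated standard error. The 3 replicates are biological per the labels; same-numbered libraries did not deviate together, so no pairing was used.

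The members and lists were chosen with earlier results of these data known. Genes were named by rule: a fixed list of 23 members; per cluster the 3 highest and 3 lowest of those called alike in both lines without overlap; the 3 highest and 3 lowest called members of each line comparison and of the difference between lines; the most abundant member per cluster; TRIM28, SETDB1 and called corepressors. Exceptions are marked, and 1 called corepressor gene is counted but not reported here. The limma fit was tested on simulated data. Alternatives were other pseudocounts, filters, scaling and designs, and leaving out each library. Promoter windows are RefSeq's (GRCh38.p14); 33 members had none there.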

Additional observations from a re-analysis of the deposited data

Results flagged for a closer look

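The 6 members named here were singled out because the naive against primed difference itself differed between the lines in limma's test, each lower in RUES2 than in H9. The libraries labelled naive RUES2 enter each of these values, so line identity and state cannot be told apart in them. ZNF560 and ZNF208 passed the filter through primed RUES2 alone, the group in which they were highest. The difference was -1.58 for ZNF560, -1.36 for ZNF208 and -1.11 for ZNF578 (adjusted p = 0.0157), and these 3 calls held without any 1 library. It was -1.33 for ZNF880, a call that ended on leaving out primed H9 replicate 1, replicate 2 of those labelled naive RUES2 or 1 naive H9 library (0.0511 to 0.0711). ZNF578 was at 1.16, 0.879 and 1.73 FPKM in primed H9, 3.51, 2.73 and 3.22 in naive H9, 2.35, 3.39 and 2.82 in primed RUES2 and 2.46, 2.06 and 2.41 in the libraries labelled naive RUES2, so it rose in H9 alone by the test (0.89 ± 0.15, adjusted p = 0.000952, against -0.21 ± 0.15, adjusted p = 0.271). ZNF542 gave -0.97 (adjusted p = 0.0326), a call that ended in 9 of the 12 fits that left out 1 library (0.0514 to 0.0848). ZNF586 gave -0.52 (adjusted p = 0.0476), and its call ended without any 1 library except primed RUES2 replicate 3 (0.0602 to 0.111).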

How the results depend on the processing

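For the named genes, no difference that passed the test in the main fit changed direction under any alternative run. Sign changes of differences that passed in neither fit were not counted. The first of these limits is the level: with a filter of 5 FPKM 16 members rose in naive H9 (10 at 19q13.4, 2 at 19q13.1-q13.3, 7 from ZNF480 to ZNF816) and 12 fell (2 at 19p13, 0 at 19q13.1-q13.3, 1 from ZNF439 to ZNF788). In RUES2 24 then fell (4 at 19p13, 4 at 19p12, 2 at 19q13.1-q13.3, 2 from ZNF439 to ZNF788), 4 were higher in primed RUES2, 5 higher and 4 lower in naive RUES2, and 2 had a lower state difference. Fewer genes are tested there. With no filter 6 fell in naive H9 at 19q13.4, 3 fell in RUES2 at 19q13.1-q13.3, 3 had a lower state difference and 4 were lower in naive RUES2. With only the 2 groups compared 5 fell in naive H9 at 19q13.4, 2 at 19q13.1-q13.3 in each line, 3 were higher in primed RUES2 and 12 lower in naive RUES2. Size factors gave 2 falls in naive H9 at 19q13.1-q13.3 and 5 among corepressors, and moved medians by at most 0.07 (log2). A pseudocount of 0.1 gave 2 members with a higher state difference. The 2 added settings were chosen after seeing the data: a filter of 0.3 FPKM gave 2 rises in RUES2 at 19p13, and without the 3 libraries labelled naive RUES2 7 members were higher in primed RUES2. The causes were not tested. Leaving out 1 library at a time gave 22 to 34 rises in naive H9 (2 to 5, 2 to 5, 3 to 6 and 14 to 20 at 19p13, 19p12, 19q13.1-q13.3 and 19q13.4) and 12 to 29 falls (5 to 9, 0 to 7, 0 to 2 and 3 to 14). In RUES2 it gave 11 to 23 rises (1 to 2, 0 to 1, 1 to 5 and 9 to 16) and 29 to 47 falls (9 to 14, 4 to 8, 2 to 7 and 13 to 22). Corepressors gave 5 to 7 rises and 3 to 6 falls in H9, and 4 to 6 and 2 to 7 in RUES2. The run from ZNF480 to ZNF816 gave 10 to 12 and 4 to 7 rises, and that from ZNF439 to ZNF788 5 to 6 and 5 to 8 falls. Between lines it gave 7 to 20 higher and 0 to 2 lower primed, 10 to 24 higher and 3 to 8 lower naive, and 0 to 3 higher and 3 to 7 lower state differences. Replicate numbers did not pair the libraries (correlations of deviations from -0.05 to 0.14), and with the replicate number as a block 2 fell in naive H9 at 19q13.1-q13.3, 3 were lower in naive RUES2 and no other count moved by over 1.5 times.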
